A study of Caenorhabditis elegans with 6 samples.

Results

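The insulin/IGF-1 signaling core of *C. elegans* was taken as 10 genes, from the receptor *daf-2* to the transcription factor *daf-16*, and every probe whose gene symbol was 1 of these names was included. The rule used names only and no measured value. It found 26 of the 43603 probes of the array and 10 of its 24747 genes and unnamed targets. After the filter on dim probes, 24 of the 26 probes and all 10 genes were kept, out of 27514 probes and 16058 genes.

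RNA came from wild-type N2 hermaphrodites, treated with pRJ-Fr.5 for 24 h from the L4 stage or not treated, on 3 one-colour Agilent arrays in each group. pRJ-Fr.5 is a fraction of protease-treated royal jelly that was eluted from a reversed-phase column with methanol and water. The sample labels give its dose as 25 mg/ml, whereas the methods of the study give 25 µg/ml. Both groups were fed *E. coli* OP50 irradiated with ultraviolet light, carried no mutation or transgene, and each sample pooled many whole worms. In such samples, fewer cells of a type and less RNA per cell cannot be told apart. The labels do not say that replicates were separate cultures, so p-values measure only the spread between these samples.

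In this pathway, insulin-like peptides bind the receptor DAF-2, which activates the phosphoinositide 3-kinase AGE-1 directly and through adapters. The lipid that AGE-1 makes recruits the kinases PDK-1, AKT-1, AKT-2 and SGK-1, and the phosphatase DAF-18 removes it. Active kinases phosphorylate the FOXO transcription factor DAF-16 and hold it out of the nucleus. Lower activity of the pathway is known for long life in worms. Much of this regulation acts on proteins and their location, which the arrays did not measure.

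The arrays were of unequal quality. Between 32814 and 34355 probes were well above background on the arrays of pRJ-Fr.5-treated worms, against 27725 to 34548 on those of control worms. Control replicate 3 held the lowest count, a negative-control SD of 5.42 against 1.23 to 1.67 on the other 5 arrays, and 207 outlier spots against 5 to 9. That array alone removed 4704 probes from the test. It shared slide 2 with pRJ-Fr.5 replicate 3, and the other 4 arrays were on slide 1.

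All levels below are log2 signals relative to the 75th percentile of the same array, and all differences are pRJ-Fr.5 minus control on that log2 scale. With limma and an adjusted p of 0.05, 2 of the 10 genes, *daf-2* and *pdk-1*, were higher in pRJ-Fr.5-treated worms and none was lower. Over all genes tested, 29.8% were called, 10.7% as higher and 19.1% as lower. The 1717 genes called higher became 538 without pRJ-Fr.5 replicate 2 and 641 without control replicate 2. With so few genes, 2 in 10 cannot be set apart from these shares, and 6 genes had an unadjusted p under 0.05. The count was 1 without control replicate 2, control replicate 3 or pRJ-Fr.5 replicate 2. It was 4 without pRJ-Fr.5 replicate 3. The median difference over the 10 genes was 0.21, beside 0.03 over all genes tested, and the median of the absolute differences was 0.21, beside 0.18. Differences were above 0 for 9 genes and below 0 for *sgk-1*, beside 45.6% of all genes below 0. In 7 genes the 2 groups did not overlap, as in 49.7% of all genes.

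**Figure D1:**
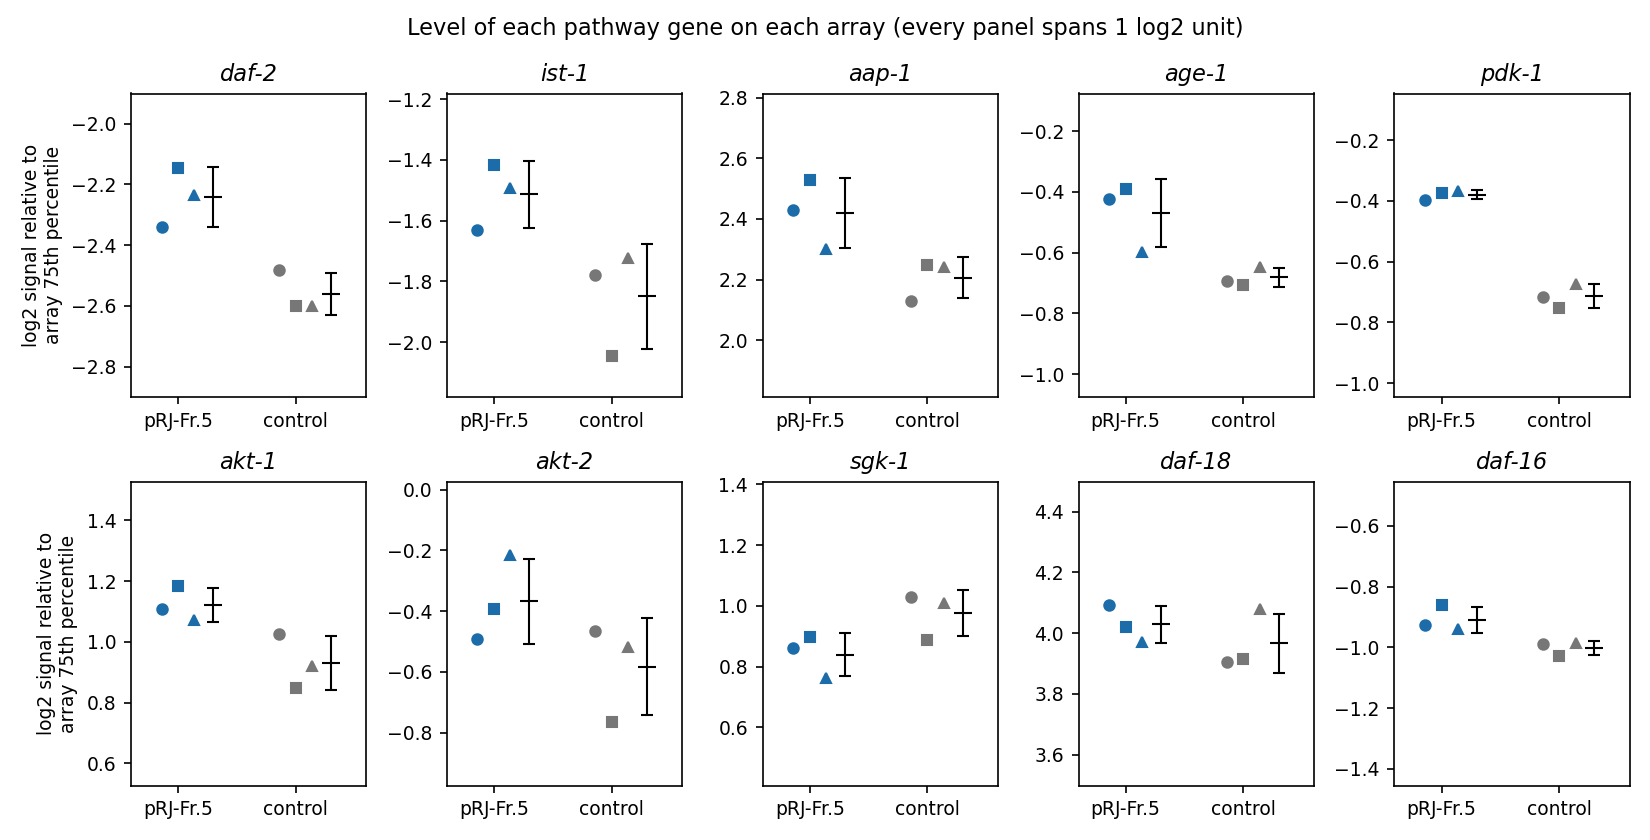
Log2 signal relative to the 75th percentile of the array (vertical axes, a separate scale for each gene) for the 10 genes of the insulin/IGF-1 signaling core on the 6 arrays, with pRJ-Fr.5 left of control. Marker shapes stand for the replicate and horizontal bars for the group mean, and the groups are apart in 7 genes and overlap in *akt-2*, *sgk-1* and *daf-18*.

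The insulin/IGF-1 receptor gene *daf-2* (Y55D5A.5, chromosome III) was higher in pRJ-Fr.5-treated worms. Its level was -2.34, -2.15 and -2.24 on the arrays of treated worms, against -2.48, -2.60 and -2.60 on those of control worms. All 3 treated samples lay above all 3 control samples. The means were -2.24 ± 0.10 with pRJ-Fr.5 and -2.56 ± 0.07 in control (SD, n = 3 each), a difference of 0.32 (SE 0.07, 95% interval 0.14 to 0.50, limma adjusted p = 0.0201). This was a 1.25-fold level, with an interval of 1.1 to 1.41. The difference ranked at the 90.1st percentile of all genes tested. It was 0.30 within slide 1 and 0.36 within slide 2, the second from 1 array of each group.

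The difference of *daf-2* was also read probe by probe. The array carried 7 probes for the gene, 6 of them assigned to Y55D5A.5a and 1 to Y55D5A.5b, and 5 passed the filter. Of these, 4 were called higher, with differences of 0.29 to 0.37 and limma adjusted p from 0.00867 to 0.0477, and the remaining one differed by 0.25 (adjusted p = 0.145). The probe with the smallest p read -2.19, -2.05 and -2.18 with pRJ-Fr.5, against -2.45, -2.52 and -2.55 in control. The 2 probes left out, among them that of Y55D5A.5b, were not well above background on control replicate 3 only. Their differences were 0.21 and 0.24, and in both the groups overlapped. The probe of Y55D5A.5b read -6.91, -6.56 and -6.22 with pRJ-Fr.5, against -6.63, -6.53 and -7.25 in control. Its lowest value was that of control replicate 3, so these 2 dim probes add no support. Without control replicate 3, when all 7 probes were kept, the difference of *daf-2* was 0.24 with an adjusted p of 0.143. The call was also lost without control replicate 2 (adjusted p = 0.0781) and without pRJ-Fr.5 replicate 2 (adjusted p = 0.0826).

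**Figure D2:**
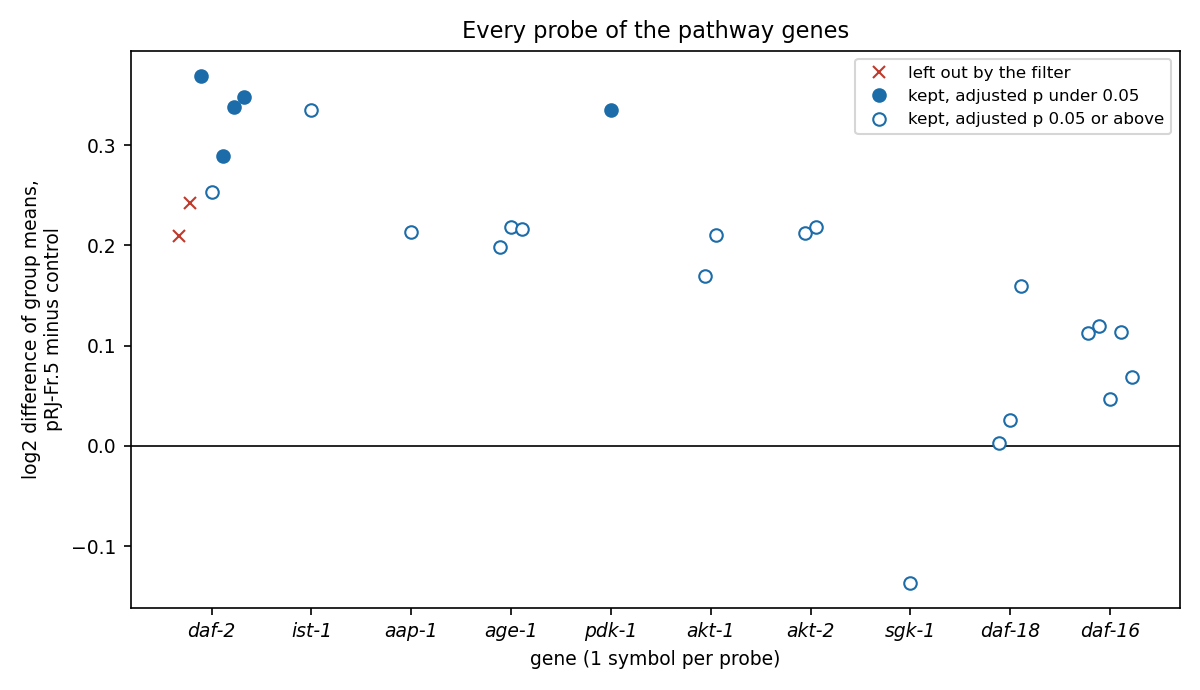
Difference of the group means in log2 signal, pRJ-Fr.5 minus control (vertical axis), for each of the 26 probes of the 10 genes (horizontal axis). Crosses mark the 2 probes of *daf-2* left out by the filter, and filled points mark called probes. Of the 24 kept probes, 4 of *daf-2* and that of *pdk-1* were called, and the probe of *sgk-1* is the only one below 0.

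Next to the receptor stands *ist-1* (C54D1.3, chromosome X), which encodes a homologue of the insulin receptor substrates that dock on the activated receptor. Its single probe read -1.63, -1.42 and -1.49 with pRJ-Fr.5 and -1.78, -2.05 and -1.72 in control. The groups did not overlap, and control replicate 2 was the lowest sample. The difference of 0.34 (SE 0.10, 95% interval 0.08 to 0.59) was as large as that of *daf-2* but with a wider spread, and it did not pass the threshold (adjusted p = 0.0528). It passed with quantile normalization (adjusted p = 0.04), with a shift to the array median (0.0378) and without pRJ-Fr.5 replicate 1 (0.0396).

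The phosphoinositide 3-kinase of the pathway has an adapter subunit, encoded by *aap-1* (Y110A7A.10, chromosome I), and a catalytic subunit, encoded by *age-1* (B0334.8, chromosome II). For *aap-1* the level was 2.43, 2.53 and 2.30 in pRJ-Fr.5-treated worms, against 2.13, 2.25 and 2.24 in control worms. For *age-1* it was -0.42, -0.39 and -0.60 with pRJ-Fr.5, against -0.69, -0.71 and -0.65 in control. Neither gene overlapped between groups, and in both pRJ-Fr.5 replicate 3 lay closest to the control samples. The differences were 0.21 for *aap-1* (SE 0.08, 95% interval 0.03 to 0.40, adjusted p = 0.0829) and 0.21 for *age-1* (SE 0.07, 95% interval 0.04 to 0.39, adjusted p = 0.0704). The 3 probes of *age-1* gave 0.20, 0.22 and 0.22, none of them called. Within slide 1 the differences were 0.29 for *aap-1* and 0.29 for *age-1*, but within slide 2, with 1 array of each group, they were 0.06 and 0.05. Without pRJ-Fr.5 replicate 3 both passed the threshold, *aap-1* with 0.27 (adjusted p = 0.0449) and *age-1* with 0.28 (adjusted p = 0.0248).

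PDK-1 is the kinase that phosphorylates and activates the other kinases downstream of AGE-1. The gene *pdk-1* (H42K12.1, chromosome X) showed the tightest values of the 10 genes in treated worms, -0.40, -0.37 and -0.37, against -0.72, -0.75 and -0.67 in control worms. The gap between the groups was several times the spread within either. The means were -0.38 ± 0.02 with pRJ-Fr.5 and -0.71 ± 0.04 in control (SD, n = 3 each), a difference of 0.33 (SE 0.05, 95% interval 0.20 to 0.47, limma adjusted p = 0.00505). The fold was 1.26, with an interval of 1.15 to 1.38. It was 0.35 on the log2 scale within slide 1 and 0.31 within slide 2. The gene was read by 1 probe, so that no other probe checks it.

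Of the 3 kinases that PDK-1 activates, none passed the threshold. *akt-1* (C12D8.10, chromosome V) and *akt-2* (F28H6.1, chromosome X) encode the Akt kinases, which phosphorylate DAF-16. *akt-1* read 1.11, 1.18 and 1.07 with pRJ-Fr.5 and 1.02, 0.85 and 0.92 in control, without overlap, a difference of 0.19 (SE 0.07, 95% interval 0.02 to 0.36) that did not pass the threshold (adjusted p = 0.0823). *akt-2* read -0.49, -0.39 and -0.22 with pRJ-Fr.5 and -0.46, -0.76 and -0.52 in control. Here pRJ-Fr.5 replicate 1 lay below control replicate 1, and the difference of 0.22 (SE 0.11, 95% interval -0.04 to 0.47) was smaller than the range of either group (adjusted p = 0.17). The 2 probes of *akt-1* differed by 0.17 and 0.21 and those of *akt-2* by 0.21 and 0.22, none of them called.

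*sgk-1* (W10G6.2, chromosome X) encodes the serum- and glucocorticoid-inducible kinase homologue, which in worms is also activated by the TOR complex that contains Rictor. It was the only gene of the 10 with a difference below 0. Its probe read 0.86, 0.90 and 0.76 in pRJ-Fr.5-treated worms, against 1.03, 0.89 and 1.01 in control worms. Control replicate 2 fell among the treated samples, and the difference of -0.14 (SE 0.07, 95% interval -0.30 to 0.03) did not pass the threshold (adjusted p = 0.173). A fall of more than 0.30 or a rise of more than 0.03 lay outside that interval.

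The contrast between *sgk-1* and the other kinases was looked at within arrays, after the values above had been seen, in 3 pairs. The log2 value of *pdk-1* minus that of *sgk-1* was -1.26, -1.27 and -1.13 with pRJ-Fr.5, against -1.75, -1.64 and -1.68 in control, a shift of 0.47 between the groups. For *akt-1* minus *sgk-1* the values were 0.25, 0.29 and 0.31 with pRJ-Fr.5, against -0.01, -0.04 and -0.09 in control, a shift of 0.33. For *akt-2* minus *sgk-1* they were -1.35, -1.29 and -0.98 with pRJ-Fr.5, against -1.49, -1.65 and -1.53 in control, a shift of 0.35. In all 3 pairs the treated samples lay above the control samples. The scaling of an array cancels in such a difference, and only its shift between groups, not its level, can be read. No test is given for the pairs, because they set kinases with differences above 0 against the only gene below 0. Shifts above 0 follow from that choice. The pairs share *sgk-1*, and the share of other gene pairs without overlap was not counted, so these shifts are descriptions.

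DAF-18 is the lipid phosphatase that opposes AGE-1 in worms. The level of *daf-18* (T07A9.6, chromosome IV) was 4.09, 4.02 and 3.97 with pRJ-Fr.5, against 3.90, 3.92 and 4.08 in control. The groups overlapped, and the difference of 0.06 (SE 0.07, 95% interval -0.11 to 0.24) did not exceed their spread (adjusted p = 0.528). Its 3 probes gave 0.00, 0.03 and 0.16, and the sign of the gene differed between slide 1, with 0.15, and slide 2, with -0.11 from 1 array of each group.

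At the end of the pathway, *daf-16* (R13H8.1, chromosome I) encodes the FOXO factor. It read -0.93, -0.86 and -0.94 in pRJ-Fr.5-treated worms, against -0.99, -1.03 and -0.99 in control worms. The groups did not overlap, but the gap was small, and the difference of 0.09 (SE 0.06, 95% interval -0.04 to 0.23) did not pass the threshold (adjusted p = 0.24). The 5 probes of the gene were assigned to several transcripts. Those of R13H8.1c differed by 0.07, 0.11 and 0.11, that of R13H8.1a by 0.12 and that of R13H8.1d by 0.05. None was called, and the groups did not overlap in 3 of the 5, beside 46.5% of all probes. The errors of these probe differences were 0.06 to 0.07, and differences between transcripts were not tested.

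**Figure D3:**
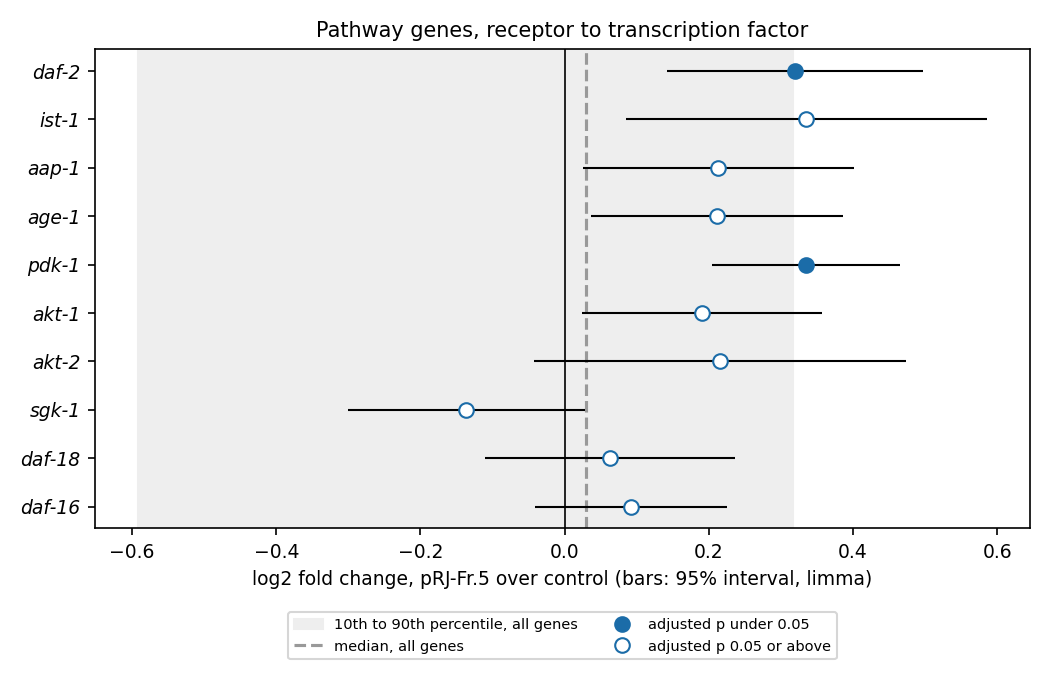
Difference in log2 signal, pRJ-Fr.5 minus control, for each of the 10 genes in the order of the pathway, with the 95% limma interval. The intervals of *akt-2*, *sgk-1*, *daf-18* and *daf-16* cross 0, and filled points mark *daf-2* and *pdk-1*, the genes past the threshold.

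Counted by probe, 5 of the 24 kept probes were called, all higher, beside 25% of all probes called, 8.78% as higher and 16.2% as lower. Of the 24, 23 differed by more than 0, and the groups did not overlap in 13, beside 46.5% of all probes. The 4 called probes of *daf-2* are directed at 1 gene and are not independent. The count was 2 without control replicate 2, control replicate 3 or pRJ-Fr.5 replicate 2. It was 3 without pRJ-Fr.5 replicate 3. No gene of the 10 reached 1.8-fold, the mark of size that the study used, and the highest upper bound of an interval was 1.5-fold, for *ist-1*. The 10th and 90th percentiles of the difference over all genes were -0.59 and 0.32, so that *ist-1*, *pdk-1* and *daf-2* stood near the upper one.

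Within the groups, pRJ-Fr.5 replicate 2 was the highest of the treated samples in 7 of the 10 genes, beside 25% of all genes, and control replicate 2 was the lowest of the control samples in 8 of the 10, beside 35.3% of all genes. Over the 17 alternative settings run for each of the 10 genes, 159 of 170 values kept the side of the threshold and the direction, and none changed sign. Many of these values could not change sign. Settings that change only the fit leave the difference of every gene as it was. The other filters on dim probes changed the difference of *daf-2* only. The count is therefore no measure of how stable the directions are. *pdk-1* passed in all 17, with differences of 0.31 to 0.37 and adjusted p from 0.00478 to 0.0326. *daf-2* passed in 11 of them, with differences of 0.24 to 0.37 and adjusted p from 0.00874 to 0.143.

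**Figure D4:**
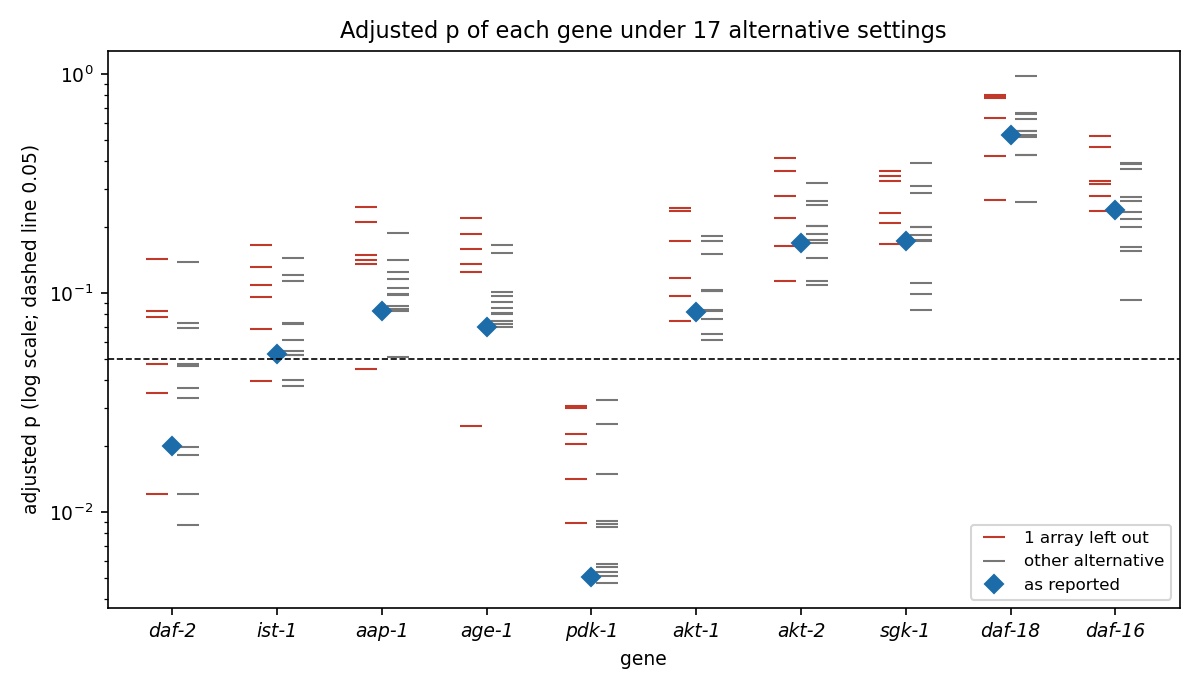
Adjusted p (vertical axis, log scale) of each of the 10 genes (horizontal axis) under the setting used in the text and 17 alternatives (points). The alternatives change the scaling, the filter, the fit or the arrays included, and the dashed line marks the threshold. *pdk-1* stays below the line in every setting. *daf-2*, *ist-1*, *aap-1* and *age-1* have points on both sides of it, and the other genes stay above it.

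Other genes tied to the pathway were taken from a list of 34. It held adapters and phosphatases, TOR complex subunits, partners and repressors of DAF-16, and genes for the release of insulin-like peptides. It also held kinases and transcription factors that need not act on the core. All 34 were on the array and 28 were kept. Of the 28, 3 were higher in pRJ-Fr.5-treated worms and none was lower. This was 10.7% of the 28, the same as the share of all genes called higher. The median difference was 0.13, beside 0.03 over all genes, with 25 differences above 0 and 3 below. The groups did not overlap in 13 of the 28, beside 49.7% of all genes.

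Of the 3 called genes, 2 encode subunits of the TOR complex that activates SGK-1 in worms. *rict-1* (F29C12.3), the homologue of Rictor, read 1.13, 1.24 and 1.16 with pRJ-Fr.5 and 0.95, 0.91 and 0.77 in control, a difference of 0.30 (SE 0.07, limma adjusted p = 0.0225). *sinh-1* (Y57A10A.20), the homologue of Sin1, read -3.50, -3.49 and -3.59 with pRJ-Fr.5 and -3.76, -3.79 and -3.72 in control, a difference of 0.24 (SE 0.06, limma adjusted p = 0.0257). Both genes were clear of overlap. *rict-1* was read by 1 of its 2 probes and *sinh-1* by 2 of its 3, the others being left out by the filter. The TOR kinase gene itself, *let-363*, differed by 0.09 (adjusted p = 0.308), and *daf-15*, which encodes the Raptor of the other TOR complex, by 0.17 (adjusted p = 0.0593).

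The remaining called gene was *hcf-1* (C46A5.9), which encodes a nuclear protein that binds DAF-16 and limits its access to target genes. Its level was 1.41, 1.43 and 1.48 with pRJ-Fr.5, against 1.16, 1.22 and 1.30 in control, again without overlap. The difference was 0.21 (SE 0.06, limma adjusted p = 0.044). The 3 genes with differences below 0 were *unc-31*, needed for release from dense-core vesicles (-0.30, adjusted p = 0.103), *ftt-2*, whose protein binds phosphorylated DAF-16 in the cytoplasm (-0.16, adjusted p = 0.205), and the Ras gene *let-60*, and none of them passed. The 3 calls of this list were lost without control replicate 2, without control replicate 3 and without pRJ-Fr.5 replicate 2, each of which left 0 by limma, with 6, 8 and 3 genes at an unadjusted p under 0.05. Without control replicate 1, 1 gene of the list was called.

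**Figure D5:**
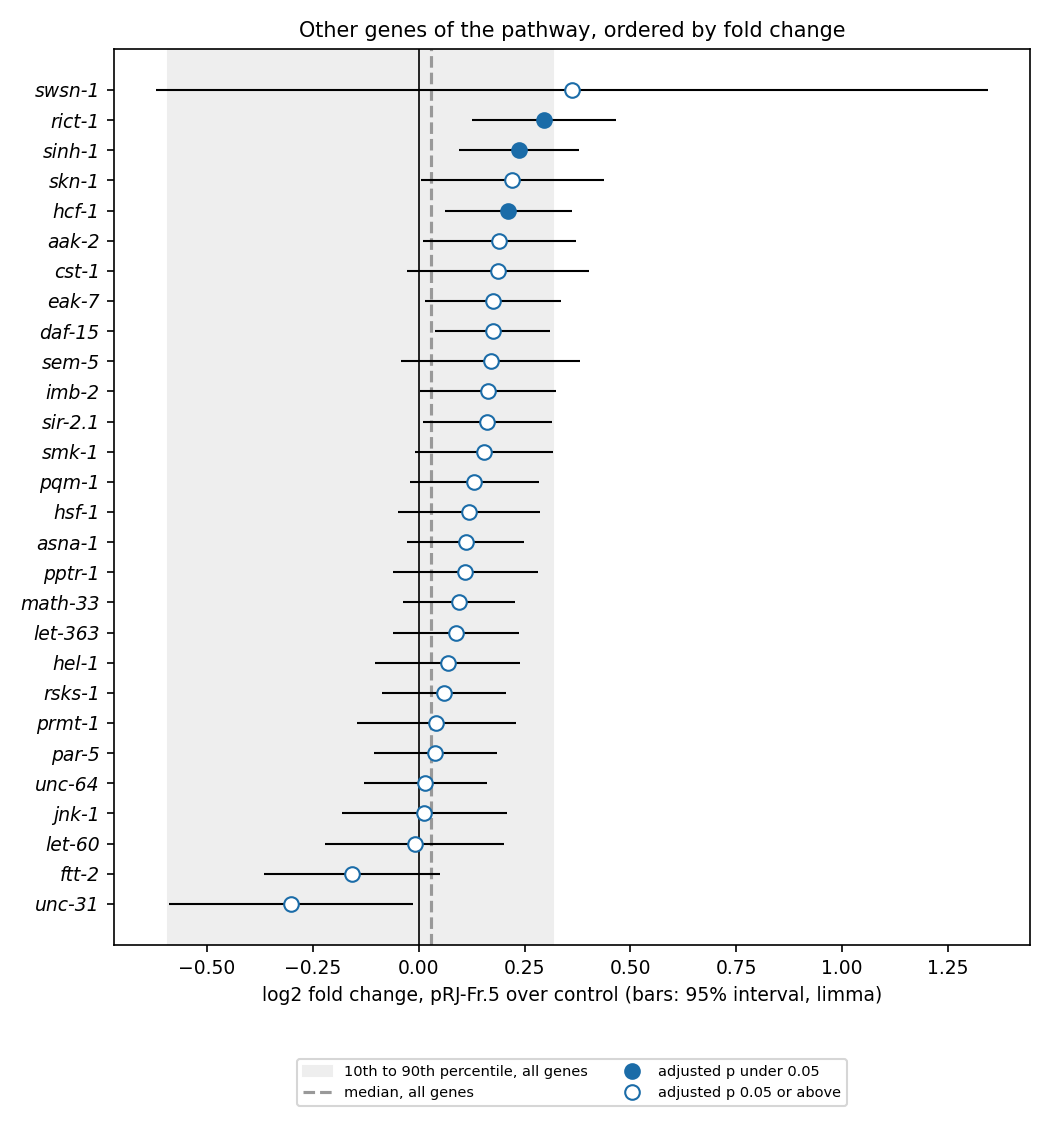
Difference in log2 signal, pRJ-Fr.5 minus control, with the 95% limma interval, for the 28 kept genes of the list of other genes tied to the pathway. *rict-1*, *sinh-1* and *hcf-1* passed the threshold, all above 0, and *unc-31*, *ftt-2* and *let-60* lie below 0.

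The 6 genes of the list that were not kept were *shc-1*, *rle-1*, *sdf-9*, *eak-3*, *eak-4* and *hsd-1*. The last 4 are known for expression in the XXX cells of the head, a small neuroendocrine cell type. The probes of *eak-4* and *hsd-1* were not well above background on any of the 6 arrays and that of *eak-3* on 5 of 6, so that no difference can be given for them. The best probes of *shc-1*, *rle-1* and *sdf-9* failed on control replicate 3 only.

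To place the 2 ends of the pathway, the genes closest to them in pattern were searched among 14573 genes, by the mean absolute difference of centred log2 values over the 6 arrays. Closest to *daf-2* were *gmeb-1* (0.0202), *dap-1* (0.0223) and C03E10.3 (0.0262), with differences between groups of 0.29, 0.35 and 0.35. Closest to *daf-16* were *nck-1* (0.00731), F52B11.5 (0.0112) and C24H10.2 (0.0121), with differences between groups of 0.09, 0.09 and 0.10. The search used the same 6 arrays, so differences near those of *daf-2* and *daf-16* follow from it and are descriptions.

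Whole worms hold many tissues, and markers of 7 of them were read beside the pathway genes. Of 40 markers 39 were kept, and 1 was higher and 9 were lower in pRJ-Fr.5-treated worms, beside 10.7% of all genes called higher and 19.1% called lower. All 5 kept sperm markers were lower, with a summed linear level of 4.06 to 4.69 in treated worms, against 6.23 to 6.69 in control worms. The hypodermis and cuticle markers summed to 20.5 to 22.1 in treated worms and 27.3 to 29.7 in control worms, with 2 of 6 called lower. For the intestine, where much of the action of DAF-16 on lifespan is known to take place, the sums were 37.2 to 37.9 with pRJ-Fr.5 and 39.4 to 42.3 in control, with 1 of 6 markers higher and 2 lower. Sums of linear levels follow the markers with the highest signal. The median difference was -0.04 for intestine, -0.42 for hypodermis and cuticle and -0.56 for sperm. It was -0.16 for body wall muscle, -0.05 for neurons, 0.14 for germ line and 0.12 for oocytes and eggshell. The sums for neurons overlapped, with at most 17.1 in treated worms and 17.2 in control worms, and none of the markers of neurons, body wall muscle, germ line or oocytes and eggshell was called. The part of these differences between samples in the values of the pathway genes was not tested.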

How the data were processed

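The pathway genes, the list of other genes tied to the pathway and the tissue markers were chosen with earlier results of these data known. Scanner output deposited by the authors (Agilent Feature Extraction 10.7.1.1) gave an intensity for every spot, background-subtracted and not normalized between arrays, with flags for outliers and for signal above background. They also deposited a table that holds a linear ratio of each probe to the 75th percentile of its array, used here as an alternative. Ratios above a low cutoff differed by at most 0.0627 on the log2 scale from the intensities divided by that percentile. Lower ratios were not compared. Intensities were divided by the 75th percentile, outlier spots and control spots were left out, and log2 was taken. A probe was kept when well above background on all 6 arrays, and a gene was the mean of its kept probes. The number of arrays limits the precision.

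The sequence names of 80.0% of the probes were matched to symbols in the RefSeq table of WBcel235. Coordinates are left out because the array design used an older build. Groups were compared with limma 3.58.1 (lmFit and eBayes) in R 4.3.3 on all genes or all probes, with Benjamini-Hochberg adjustment over all of them. No replicate block was used. Named genes were all 10 pathway genes, the genes of the list past the threshold, and the 3 genes nearest in pattern to *daf-2* and to *daf-16*. Other genes of the list, the probes of *daf-2* and the 3 kinase pairs were named after their values were seen. The fit was tested on simulated data with changes larger than any difference of the 10 pathway genes. That test does not bear on differences of their size. Alternatives were the methods' t-test, normexp with an offset of 50, quantile, median and detected-probe scaling, other filters, the series table, slide and replicate blocks, the highest-signal probe and each array left out.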

Additional observations from a re-analysis of the deposited data

How the results depend on the processing

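The scalings (normexp, quantile, median, 75th percentile of detected probes, the series table) moved the median of all genes by less than 0.1 on the log2 scale. Without the filter on dim probes, calls were 2678 of genes (against 4788) and 3600 of probes (against 6882). They were 1 of the 10 pathway genes (against 2), 2 of their probes (against 5) and 0 of the other listed genes (against 3). Of those listed genes, 4 had an unadjusted p under 0.05. With detection required in 1 group only, calls were 1 pathway gene, 3 of its probes and 1 listed gene. Scaling to detected probes left 3 pathway probes, and taking the highest-signal probe of each gene left 1 listed gene. The methods' t-test after Benjamini-Hochberg adjustment called 4473 probes. With each array left out in turn, calls ranged from 2749 to 5510 genes, 3855 to 8233 probes, 1 to 4 pathway genes, 2 to 6 pathway probes and 0 to 3 listed genes. The lowest counts of all genes and all probes came without pRJ-Fr.5 replicate 2. *daf-2* also lost its call without the filter (adjusted p = 0.139) and with detection in 1 group (0.0696). In both settings the 2 dim probes of *daf-2* entered its mean, and its difference was 0.29 (SE 0.10 and 0.09). The adjustment also ran over more genes, and the part of each in the lost call was not tested. Deviations of samples with the same replicate number correlated at -0.22, 0.06 and -0.01, against -0.12 to 0.13 for different numbers. These deviations are from group means of 3 samples, so they cannot show whether samples were prepared in pairs. With the replicate number as a block, 3198 genes, 4668 probes, 1 pathway gene, 2 of the pathway probes and 0 listed genes (5 at an unadjusted p under 0.05) were called, with *daf-2* at an adjusted p of 0.0735. Signal over background on control replicate 3 limits which dim probes could be tested.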
